A study of Mus musculus with 46 samples.

Results

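The genes described here are 10 mouse genes of the NRF2 antioxidant response, measured in bone marrow-derived macrophages that were activated while SWI/SNF, a chromatin remodelling complex, was inhibited, degraded or genetically altered. They are Hmox1, Srxn1, Osgin1, Gclc, Gclm, Txnrd1, Nqo1, Gsr, Prdx1 and Nfe2l2. They were taken by symbol from the deposited expression tables, where all 10 were listed among 24537 genes (experiments 1 and 3) or 25124 genes (experiments 2 and 4). Messenger RNA was sequenced in 4 experiments, and 45 libraries were used. Experiment 1 held wild-type cells after 0, 1 and 4 hr of lipid A, the membrane anchor of LPS that is sensed by Toll-like receptor 4, and wild-type cells given ACBI1, BRM014 or BRDK98 and collected at 4 hr. Experiment 2 held Arid1af/f cells after 0, 1 and 4 hr of LPS and Arid1a-/- cells at 1 and 4 hr. Experiment 3 held Pbrm1f/f cells after 0 and 4 hr of lipid A and Pbrm1-/- cells at 4 hr. Experiment 4 held wild-type cells after 0, 20 and 60 min of lipid A and cells given each of the 3 compounds at 20 and 60 min. The labels also call the floxed controls WT. SMARCA2 and SMARCA4 are the alternative ATPases that drive SWI/SNF. ACBI1 causes the degradation of both, and of PBRM1, whereas BRM014 blocks their catalytic activity. For BRDK98 only the code name is used. The header commands of the deposited tables name its libraries BRDK98 in experiment 4 but INB in experiment 1, and name the Pbrm1-/- libraries TAM. Groups here follow the labels, and that the BRDK98 values of experiments 1 and 4 concern the same compound rests on the labels alone. ARID1A and PBRM1 are subunits of separate SWI/SNF assemblies, the canonical BAF complex and the PBAF complex. Doses, the length of pretreatment, the Cre that deleted the floxed genes, and whether replicates came from separate cultures or animals are not given in the sources used here, so the p-values measure the spread between these libraries, which may be technical. Cells with a compound or knockout but without stimulus were not analysed here, so each perturbation was compared in stimulated cells only.

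NRF2, the product of Nfe2l2, is a transcription factor that is kept low by KEAP1, which hands it to a CUL3 ubiquitin ligase. When electrophiles or oxidants modify KEAP1, NRF2 escapes degradation, pairs with a small MAF protein and binds antioxidant response elements near genes for glutathione synthesis, thioredoxin recycling and heme breakdown. BACH1, a heme-sensing repressor, competes for the same elements. In macrophages the programme accompanies the oxidative burst and the handling of iron and heme. Because NRF2 is controlled mainly through its stability, the Nfe2l2 messenger measured here is not a measure of NRF2 protein, which was not measured in these tables.

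Values are TPM, transcript abundances relative to all transcripts of a library, which compare levels between genes per unit of transcript length. A change is the log2 ratio of TPM + 1 between groups, with its standard error from limma fitted to all groups of an experiment. Lipid A and LPS moved the median of all genes. At 4 hr the median log2 change over all tested genes was -0.84, -0.63 and -0.75 in experiments 1, 2 and 3, at 1 hr -0.38 and -0.15 in experiments 1 and 2, and at 60 min -0.33. A gene was therefore called higher or lower when its limma adjusted p was below 0.05 both on TPM as deposited and on TPM scaled so that the median gene did not move, with the same sign in both. Changes below are on TPM as deposited, and the median-scaled change is given where the scaling matters to the reading.

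Recovered reads numbered 7015041 to 27527081 per library. All 8 macrophage markers were at 1 TPM or more in every library, with sums from 13348 to 46867 TPM. Lyz2 had a median of 22769 TPM and Cd68, the next, 1550 TPM, so the macrophage sums are mostly Lyz2. Lymphocyte markers summed to at most 1.27 TPM, dendritic cell markers to 9.68 TPM and erythroid or mast cell markers to 2.14 TPM. The 5 stromal or endothelial markers summed to 0.842 to 108 TPM, with at most 3 at 1 TPM or more. Of these Kdr, an endothelial receptor, was above 0 in every library and reached 61.9 TPM, Cdh5 stayed at or below 1.08 TPM, and Pdgfra was at 0 in 33 libraries. Col1a1 and Col1a2 had medians of 0.022 and 0.027 TPM, so Kdr can hold most of such a sum. Granulocyte markers summed to 6.47 to 52.4 TPM in experiments 1 and 2 and to 269 to 511 TPM in experiments 3 and 4, with 2 to 6 of 8 at 1 TPM or more and Ly6g, which defines neutrophils, at 0 in 24 libraries. S100a9, S100a8 and Ngp had medians of 131, 87.6 and 48.1 TPM and were above 0 in every library. Camp had a median of 6.48 TPM, and Mpo, Elane and Retnlg had medians of 0.632, 0.216 and 0.19 TPM. Arid1a was at 7.17 and 13.2 TPM in the knockout libraries at 1 hr against 18.3 and 17.3 in their controls, and at 25.4 and 26.1 against 35.2 and 41.9 at 4 hr. Pbrm1 was at 4.54 and 5.03 TPM in the knockout libraries against 15.6 and 14.7. Both targeted genes were lower in the libraries labelled knockout, and neither was absent. The proteins were not measured here, so loss of ARID1A or PBRM1 below refers to the knockout label. In experiment 1 the column named for the first 4 hr control library appeared more than once with identical values for all 24537 genes, so that control is 1 library. Every 4 hr compound comparison against control below rests on it, and its own variation was taken to be that of the other groups.

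On mm10 the deposited tables place Hmox1 at chr8:75093618-75100593, Srxn1 at chr2:152105524-152111376, Gclc at chr9:77754535-77794489, Gclm at chr3:122245557-122267215, Txnrd1 at chr10:82859206-82897724, Gsr at chr8:33653238-33698162 and Prdx1 at chr4:116685599-116700000, all on the plus strand. Osgin1, also on the plus strand, ends at chromosome 8 position 119446256 and starts at 119437162 in experiments 1 and 3 or 119437147 in experiments 2 and 4. Nqo1 at chr8:107388225-107403205 and Nfe2l2 at chr2:75675513-75704663 lie on the minus strand. Values sum reads over the exons of each gene. Gclm was the 1 gene whose exons overlapped those of other annotated genes, over 296 bases on the opposite strand and 244 on the same strand of 6291. Of its 50-base stretches 4.58% also occur in other genes, as do 8.81% of those of Prdx1, so these values are less certain.

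The genes spanned a wide range of abundance. Prdx1, a peroxiredoxin that reduces peroxides, had a median of 504 TPM over the 45 libraries, with a range of 280 to 1515. Hmox1, heme oxygenase 1, which cleaves heme to biliverdin, iron and carbon monoxide, had a median of 377 TPM and ranged from 69.2 to 2151. Nfe2l2 had a median of 186 TPM and ranged from 25.3 to 706. Below these lay Txnrd1 (cytosolic thioredoxin reductase, median 87.0 TPM, range 33 to 327), Srxn1 (sulfiredoxin, which restores over-oxidised peroxiredoxins, median 37.2, range 6.07 to 437) and Gsr (glutathione reductase, median 23.5, range 10.8 to 118). Gclm and Gclc, the modifier and catalytic subunits of the ligase that limits glutathione synthesis, had medians of 14.6 and 8.32 TPM, with ranges of 4.81 to 48.7 and 1.55 to 29.3. Osgin1, an oxidative stress induced growth inhibitor, had a median of 9.70 TPM, ranged from 0.092 to 50.0 and was below 1 TPM in 8 libraries. Nqo1, the quinone reductase often used as an NRF2 reporter in other tissues, had a median of 0.894 TPM and was below 1 TPM in 28 of 45 libraries. These ranges overlap between neighbours in the order, and the order of single genes changed with condition.

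The highest Nqo1 value, 9.77 TPM, came from the first 1 hr control library of experiment 1, whereas the other 1 hr control library had 0.499 TPM. The same library had Col1a1 at 56.2 TPM and Col1a2 at 48.8 TPM, collagen genes of stromal cells, against 0.044 and 0 TPM in its replicate. It also had S100a6 at 635 TPM against 135. The part of stromal RNA in that Nqo1 value was not tested. Nqo1 passed the abundance filter in experiments 1, 2 and 4 and was not tested in experiment 3, where all 6 libraries lay between 0.159 and 1.02 TPM. The other genes were tested in all 4 experiments.

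**Figure D1:**
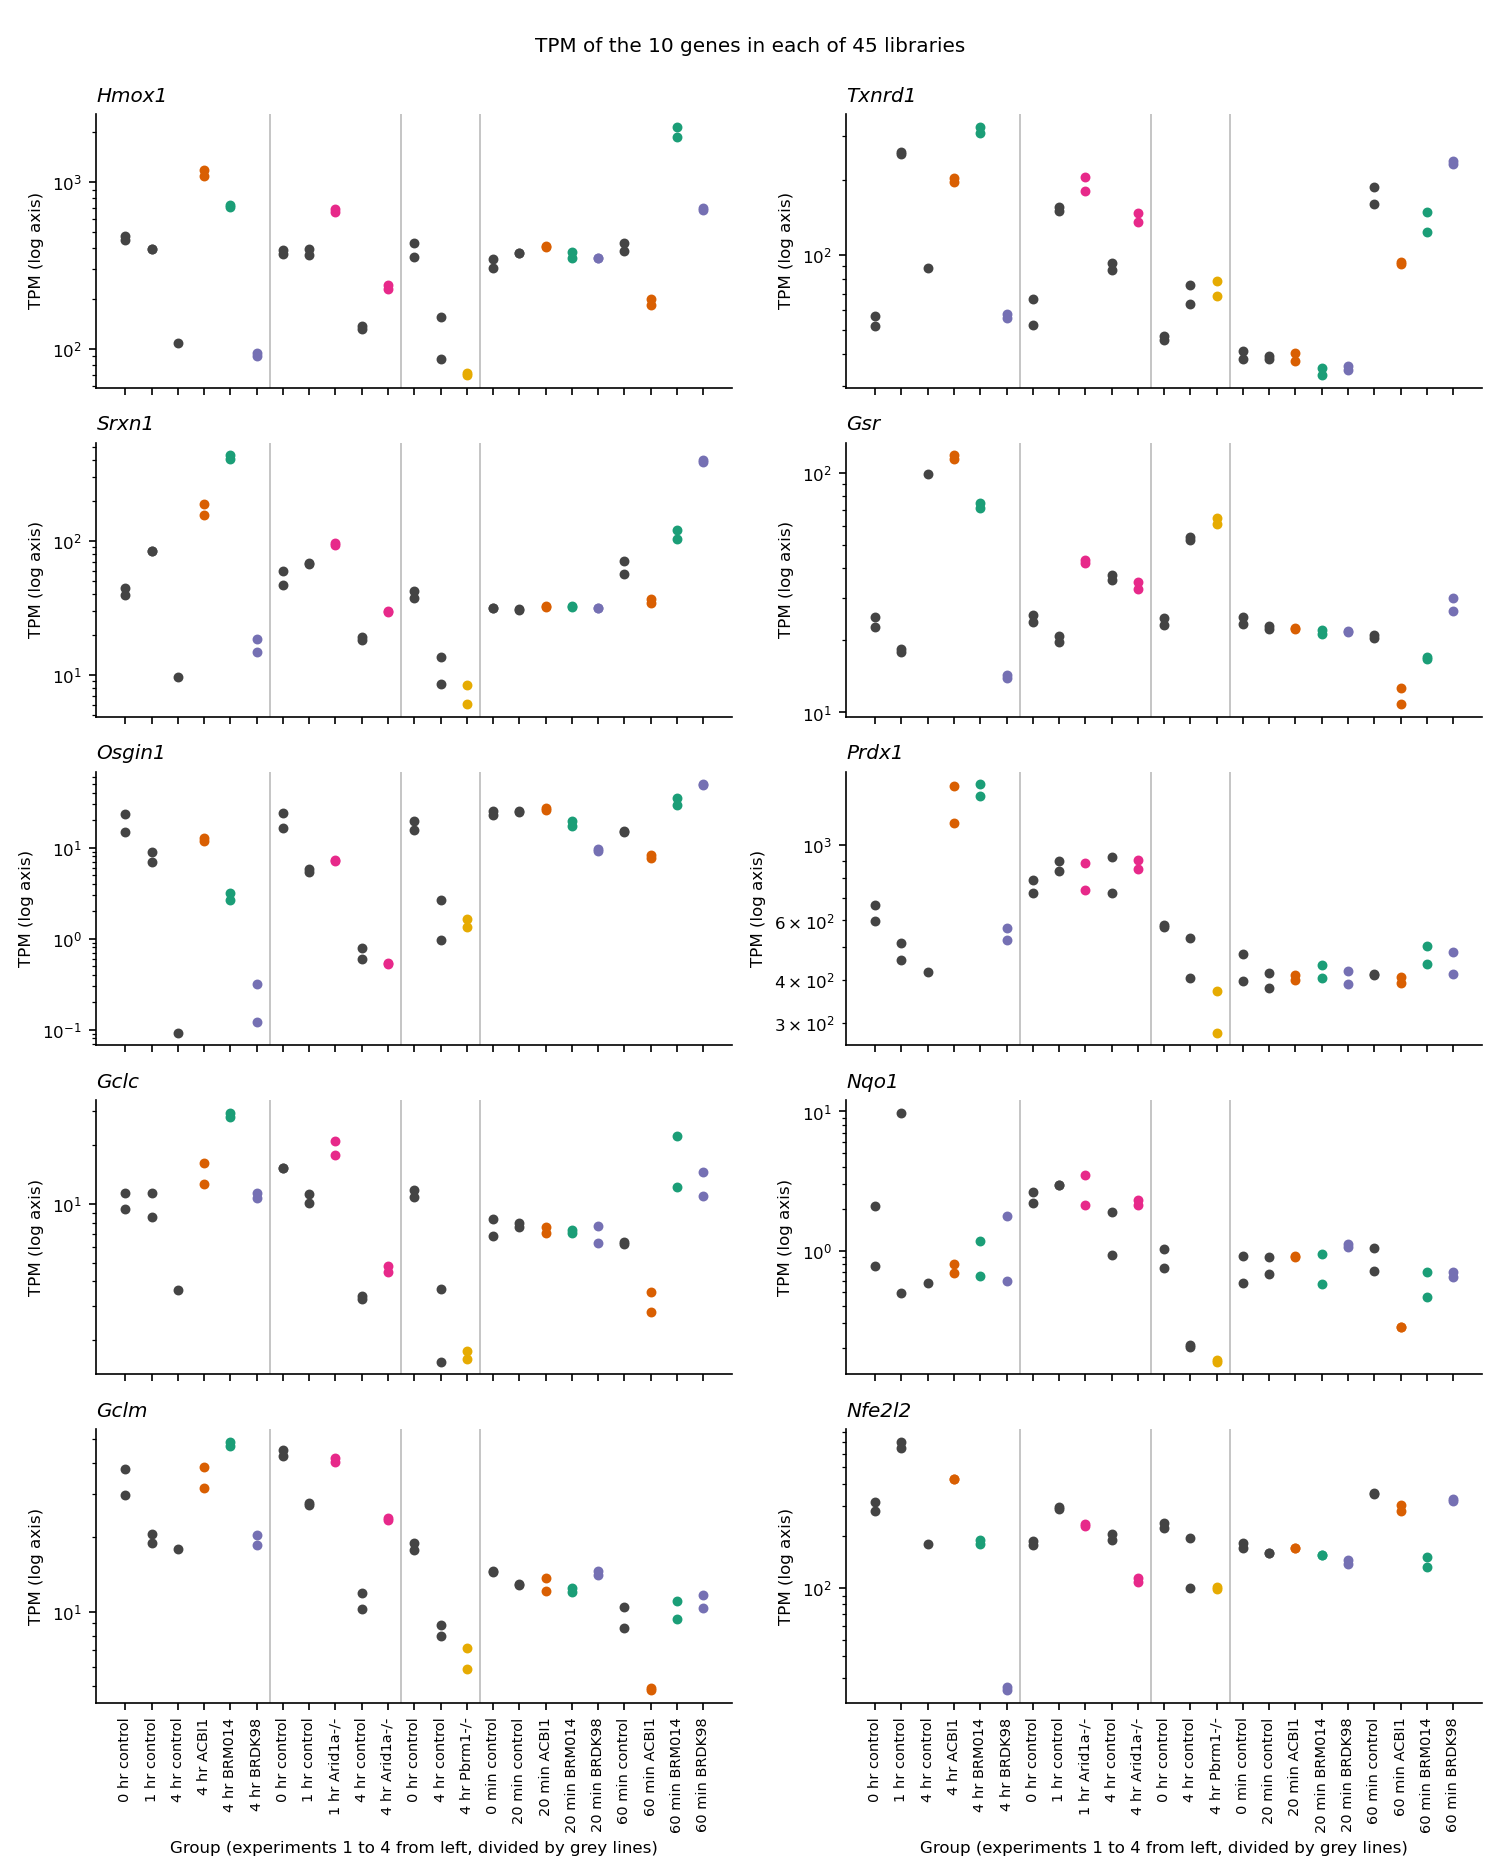
Level of each of the 10 genes in every library, in TPM on a log axis, by experiment and group, each point 1 library. Hmox1 runs from 69.2 to 2151 TPM and Srxn1 from 6.07 to 437 TPM, while Nqo1 stays below 1 TPM in 28 of 45 libraries.

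The promoters of 4 of these genes are shown as examples whose sequences hold matches to the element that NRF2 binds or to the related AP-1 element. Gclm and Nfe2l2, which also have a match, are not printed. The 250 bases before the RefSeq start of each gene (build GRCm38.p6, the assembly named mm10) are given 5′ to 3′ on the strand of the gene, in lower case. Capitals mark each match, on either strand, to the core antioxidant response element TGACNNNGC or to the AP-1 motif TGANTCA, and overlapping matches run together. The windows are Srxn1 at chr2:152105274-152105523 on the plus strand, Osgin1 at chr8:119436897-119437146 on the plus strand, Txnrd1 at chr10:82858956-82859205 on the plus strand and Prdx1 at chr4:116685349-116685598 on the plus strand. Of 3 annotated Txnrd1 starts, the one that matches the transcript in the deposited tables is shown.
Srxn1: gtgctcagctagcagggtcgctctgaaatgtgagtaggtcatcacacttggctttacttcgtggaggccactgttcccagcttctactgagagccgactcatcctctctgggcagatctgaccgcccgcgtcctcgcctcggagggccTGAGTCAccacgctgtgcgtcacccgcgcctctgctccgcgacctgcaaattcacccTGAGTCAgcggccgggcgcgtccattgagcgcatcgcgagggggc
Osgin1: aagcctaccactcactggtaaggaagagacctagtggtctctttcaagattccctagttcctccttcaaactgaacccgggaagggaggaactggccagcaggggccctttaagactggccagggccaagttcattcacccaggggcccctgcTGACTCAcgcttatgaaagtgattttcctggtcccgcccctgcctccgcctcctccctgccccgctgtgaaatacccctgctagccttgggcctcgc
Txnrd1: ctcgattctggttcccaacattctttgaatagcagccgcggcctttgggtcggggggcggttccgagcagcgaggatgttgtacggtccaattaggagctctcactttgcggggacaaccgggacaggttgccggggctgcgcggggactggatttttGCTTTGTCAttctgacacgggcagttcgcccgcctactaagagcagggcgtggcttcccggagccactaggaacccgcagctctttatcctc
Prdx1: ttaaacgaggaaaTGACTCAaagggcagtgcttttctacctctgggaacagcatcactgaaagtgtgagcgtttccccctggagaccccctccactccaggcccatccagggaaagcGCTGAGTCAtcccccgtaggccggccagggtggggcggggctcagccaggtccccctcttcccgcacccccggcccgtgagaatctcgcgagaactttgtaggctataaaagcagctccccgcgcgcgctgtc
In windows from 250 bases before to 50 bases after the start, the antioxidant response element matched in 5 of the 9 windows of these genes, against 12.4% of 32851 such windows around annotated starts. The windows belong to 7 genes, and the matches to Gclm, Nfe2l2, Prdx1, Srxn1 and 1 of the 3 Txnrd1 windows. The Srxn1 match lies 29 to 37 bases past the start, outside the stretch printed. The AP-1 motif matched in Osgin1 (1 match), Prdx1 (2) and Srxn1 (2), against 7.81% of windows. The second Prdx1 match lies inside its antioxidant response element. A match is a run of letters and does not show that a factor binds there. Only exact matches to these motifs were sought, so a window without one may still hold a variant of the element. The genes without a window in the table used were Hmox1, Gclc and Gsr.

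In control cells the first 20 min of lipid A left the 10 genes near their starting levels. None of 10 was called, against 1.08% of the 11549 genes tested in experiment 4, and 1 of 10 had an unadjusted p below 0.05 in limma. Nfe2l2 was at 158 and 160 TPM at 20 min against 183 and 169 TPM at 0 min. Srxn1 was at 30.5 and 31.0 TPM against 31.4 and 31.9 TPM.

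By the call used, Txnrd1, Srxn1 and Nfe2l2 had risen and Osgin1 had fallen at 60 min. Of 10 genes, 4 were called higher and 1 lower, while 7.47% and 18.1% of all tested genes were. Txnrd1 was at 160 and 187 TPM at 60 min against 38.2 and 41.4 TPM at 0 min. The 60 min libraries lay above both 0 min libraries, a log2 change of 2.09 ± 0.09 (limma adjusted p = 6.45e-10). Srxn1 reached 57.2 and 70.5 TPM, a log2 change of 0.98 ± 0.09 (limma adjusted p = 1.21e-06), and Nfe2l2 reached 352 and 355 TPM, a change of 1.00 ± 0.07 (limma adjusted p = 5.41e-08). The gene for NRF2 itself thus stood about 2.01-fold higher, without overlap between the groups. Osgin1 fell from 23.1 and 25.3 to 14.8 and 15.1 TPM, a log2 change of -0.65 ± 0.09 (limma adjusted p = 4.25e-05), and this call was lost without the second 0 min control library or without either 60 min control library. In the authors' deposited table Osgin1 did not pass (log2 change -0.29, adjusted p = 0.163). Hmox1 rose from 306 and 346 to 386 and 431 TPM (log2 change 0.33 ± 0.09, limma adjusted p = 0.00507). That call was lost without the first 0 min or the second 60 min library. The authors' deposited table has a larger rise of Hmox1 (log2 change 0.73, adjusted p = 3.14e-10). Gclm was at 8.58 and 10.4 TPM against 14.4 and 14.6, a log2 change of -0.57 on TPM and -0.20 after scaling, and was not called.

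The same direction was measured after 1 hr in the other experiments. With lipid A in experiment 1, 3 of 10 genes were called higher and 1 lower, against 9.9% and 19.2% of all tested genes. Txnrd1 went from 56.8 and 51.8 TPM to 259 and 255 TPM, a log2 change of 2.22 ± 0.08 (limma adjusted p = 6.47e-09). Nfe2l2 went from 314 and 278 to 706 and 649 TPM, a log2 change of 1.19 ± 0.08 (limma adjusted p = 1.87e-06), and Srxn1 from 44.7 and 39.8 to 84.4 and 84.0 TPM. The 1 hr libraries lay above both 0 hr libraries for all 3 genes. Of the 10 genes 8 had no overlap between these groups. The share over all genes was not counted, so this number alone does not show an excess. Osgin1 was at 6.88 and 9.0 TPM against 14.8 and 23.3, a log2 change of -1.14 ± 0.21 (limma adjusted p = 0.000851) that was not called without the first 1 hr library (-0.97) or the second 0 hr library (-0.84), with a pseudocount of 0.1, or with no filter on low values. It did not pass in the authors' deposited table either (-0.84, adjusted p = 0.0914). On TPM as deposited alone 8 of 10 genes passed, against 63% of all tested genes. Hmox1 changed sign with the scaling, from a log2 change of -0.22 on TPM to 0.23.

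With LPS for 1 hr in experiment 2, 3 of 10 genes were called higher and 3 lower, against 13.6% and 20.2% of all tested genes. Txnrd1 rose from 66.6 and 52.4 to 156 and 150 TPM (log2 change 1.36 ± 0.12, limma adjusted p = 1.03e-05), and Nfe2l2 from 186 and 177 to 295 and 285 TPM (0.67 ± 0.08, limma adjusted p = 6.67e-05). Osgin1 fell from 24.3 and 16.4 to 5.82 and 5.46 TPM (-1.66 ± 0.17, limma adjusted p = 2.99e-05). Both subunits of the glutathione-synthesising ligase fell as well. Gclm went from 44.9 and 42.8 to 27.6 and 27.0 TPM (-0.66 ± 0.09, limma adjusted p = 0.000279), and Gclc from 15.3 and 15.2 to 11.2 and 10.2 TPM (-0.48 ± 0.11, limma adjusted p = 0.00679). Gclc was not called when any of the 0 or 1 hr control libraries was left out. It did not pass in the authors' deposited table (-0.33, adjusted p = 0.0554). Srxn1, at 69.0 and 67.4 TPM against 59.3 and 47.1, changed by 0.36 ± 0.11 (limma adjusted p = 0.0181) and was not called without the second 0 hr library (0.20) or without either 1 hr control library. Hmox1 was at 398 and 366 TPM against 389 and 369 TPM, an interval for its log2 change of -0.16 to 0.18 on TPM as deposited. It was not called, whereas the authors' deposited table has it higher (log2 change 0.19, adjusted p = 0.0192).

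At 4 hr Hmox1, Srxn1, Osgin1 and Gclc were called lower in all 3 experiments, and Txnrd1 and Gsr higher. With lipid A in experiment 1, 2 of 10 genes were called higher and 4 lower, against 20.1% and 37.4% of all tested genes. With LPS in experiment 2, 2 were called higher and 5 lower, against 17.9% and 35.5%. With lipid A in experiment 3, 2 of the 9 tested genes were called higher and 4 lower, against 16% and 30.6%. On median-scaled TPM alone the genes called higher were 4, 4 and 3 in experiments 1, 2 and 3, against 36.9%, 33.9% and 31.4% of all tested genes, and recovered reads gave the same numbers. The median log2 change of the tested members was -0.79, -0.99 and -1.04 in experiments 1, 2 and 3 and that of all genes -0.84, -0.63 and -0.75. Macrophage markers summed to 18745 TPM in the 4 hr control library of experiment 1 against 43364 to 46867 at 0 hr, to 13348 to 13807 against 22749 to 23321 in experiment 2, and to 15471 to 20829 against 28980 to 29103 in experiment 3. Stromal or endothelial markers summed to 14.5 against 3.87 to 5.53 TPM, 29.6 to 29.8 against 1.57 to 1.96, and 25.1 to 33.6 against 10.5 to 11.9. Since Lyz2 holds most of the macrophage sum, a fall of that sum need not be shared by the other markers. The part of macrophage or stromal markers in these changes was not tested.

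Hmox1 was at 107 TPM in the 4 hr control library of experiment 1 against 476 and 448 at 0 hr, at 137 and 131 against 389 and 369 in experiment 2, and at 87.0 and 155 against 357 and 434 in experiment 3. Every 4 hr library lay below every 0 hr library of its experiment, with log2 changes of -2.09 ± 0.09, -1.49 ± 0.08 and -1.75 ± 0.25 (limma adjusted p = 1.88e-08, 3.18e-08 and 0.000328). Srxn1 fell likewise, by log2 changes of -2.03 ± 0.14, -1.45 ± 0.11 and -1.79 ± 0.23. It was at 9.58, then 18.3 and 19.2, then 8.60 and 13.7 TPM at 4 hr, and so had fallen below its unstimulated level after standing above it at 1 hr in experiments 1 and 2. On TPM as deposited these falls include that of the median gene. The authors' deposited table has smaller falls, with log2 changes of -1.07, -0.75 and -0.85 for Hmox1 and -1.11, -0.76 and -0.99 for Srxn1. Osgin1 fell furthest, to 0.092 TPM in experiment 1, 0.603 and 0.791 in experiment 2, and 0.954 and 2.66 in experiment 3, from 14.8 to 24.3 TPM at 0 hr. The experiment 1 value is 1 read against 711 in the unstimulated libraries, a ratio of 227 with a counting interval of 40.6 to 8976. The log2 changes in experiments 2 and 3 were -3.63 ± 0.17 and -2.79 ± 0.29 (limma adjusted p = 1.47e-08 and 4.37e-05).

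The 2 reductases moved the other way. Gsr, which regenerates reduced glutathione, stood at 98.2 TPM at 4 hr in experiment 1 against 24.9 and 22.8 at 0 hr, at 37.3 and 35.8 against 25.5 and 23.9 in experiment 2, and at 53.9 and 52.1 against 24.8 and 23.1 in experiment 3. All 4 hr libraries lay above the 0 hr libraries, with log2 changes of 2.0 ± 0.10, 0.54 ± 0.09 and 1.11 ± 0.15 (limma adjusted p = 3.44e-08, 0.000168 and 0.000121). At 1 hr Gsr had not been called, at 18.3 and 17.9 TPM in experiment 1. Txnrd1 stayed above its starting level, by 0.70 ± 0.09, 0.60 ± 0.12 and 0.57 ± 0.16 (limma adjusted p = 5.12e-05, 0.00072 and 0.00902), the last not called without the second 0 hr library. At 88.9 TPM in experiment 1 and 87.0 and 93.0 in experiment 2, it was lower than at 1 hr. The authors' deposited table has larger rises at 4 hr, with log2 changes of 1.74, 1.34 and 1.48 for Txnrd1 and 3.08, 1.31 and 2.03 for Gsr.

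The glutathione ligase subunits fell at 4 hr, Gclc in all 3 experiments and Gclm in experiment 2 alone by the call used. Gclc was at 3.63 TPM against 11.4 and 9.39 in experiment 1, at 3.37 and 3.23 against 15.3 and 15.2 in experiment 2, and at 1.55 and 3.65 against 11.8 and 10.9 in experiment 3. The log2 changes were -1.29 ± 0.19, -1.92 ± 0.11 and -1.84 ± 0.27 (limma adjusted p = 9.95e-05, 1.01e-07 and 0.000235). The first was -0.45 after scaling and was not called without the first 0 hr library, without either BRDK98 library, or on recovered reads (-0.48). Gclm went from 44.9 and 42.8 to 12 and 10.3 TPM in experiment 2 (-1.89 ± 0.09, limma adjusted p = 2.51e-08). Its changes of -0.86 and -1.04 in experiments 1 and 3 were 0.09 and -0.26 after scaling. Nfe2l2 and Prdx1 changed sign with the scaling at 4 hr in experiments 1 and 3, were higher on both in experiment 2 but past the threshold only after scaling, and were not called in any. Nfe2l2 was at 179 TPM against 314 and 278 in experiment 1, 205 and 191 against 186 and 177 in experiment 2, and 99.5 and 194 against 237 and 222 in experiment 3. Its log2 changes were -0.72, 0.12 and -0.72 on TPM and 0.26, 0.83 and 0.12 after scaling (limma adjusted p = 0.0272, 6.69e-06 and 0.67 on scaled TPM). In the authors' deposited table Nfe2l2 was higher in experiments 1 and 2 (log2 changes of 0.31 and 0.87, adjusted p = 0.0302 and 1.1e-20) and did not pass in experiment 3 (0.20, adjusted p = 0.596). For Prdx1 the changes were -0.58, 0.11 and -0.31 on TPM and 0.40, 0.83 and 0.53 after scaling (limma adjusted p = 0.025, 0.000252 and 0.0233 on scaled TPM), and the authors' deposited table has it higher in all 3 experiments (0.45, 0.87 and 0.57).

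**Figure D2:**
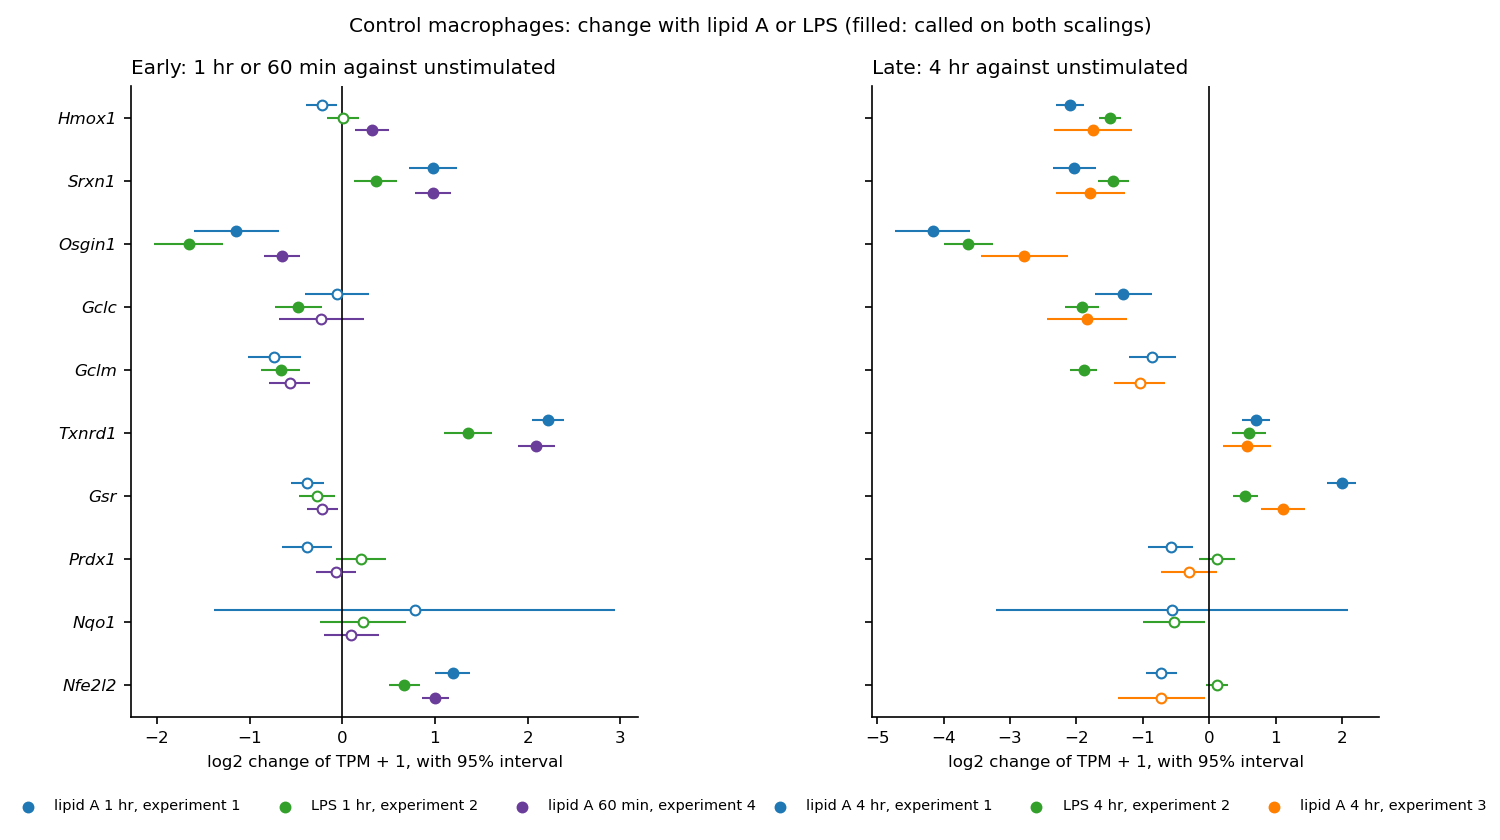
Log2 change of TPM + 1 in control cells after lipid A or LPS against unstimulated cells, with 95% intervals, early (1 hr or 60 min) on the left and at 4 hr on the right, filled where called on both scalings. Txnrd1 is to the right of 0 in all 6 comparisons and Osgin1 to the left, while Srxn1 is right of 0 early and left of 0 at 4 hr. The 4 hr intervals of experiment 1 rest on 1 control library.

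At 20 min of lipid A 1 of the 10 genes was called with any compound. With ACBI1 none of 10 was called, against 0.147% of all tested genes, with 0 at an unadjusted p below 0.05 in limma and 0 called on recovered reads. With BRM014 none of 10 was called, against 0.39%, with 1 at an unadjusted p below 0.05. That gene was Osgin1, at 17.2 and 19.7 TPM against 24.9 and 25.1 in the controls (log2 change -0.42 ± 0.09, limma adjusted p = 0.0691). On recovered reads it passed, at -0.41, against 0.52% of all genes, and it also passed when either BRM014 library at 60 min was left out of the fit. BRDK98 lowered 1 of 10 genes and raised 0, against 0.849% lower and 0.485% higher. Osgin1 was at 9.70 and 9.23 TPM with BRDK98 against 24.9 and 25.1 TPM, below every other library at that time, a log2 change of -1.31 ± 0.09 (limma adjusted p = 2.12e-06). The other 9 genes differed by log2 changes of -0.17 to 0.22 with BRDK98. Nfe2l2 was at 138 and 144 TPM against 158 and 160, which was not called.

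At 60 min the compounds moved the genes in different directions. ACBI1 lowered 8 of 10 genes and raised 0, against 13.7% lower and 11.6% higher over all tested genes, and the median log2 change of the 10 genes was -0.82 against -0.14 for all genes. Hmox1 was at 199 and 182 TPM with ACBI1 against 386 and 431 in controls, and so lay below the unstimulated libraries at 306 and 346 TPM. Its log2 change was -1.10 ± 0.09 (limma adjusted p = 9.93e-07). Txnrd1, at 94.1 and 92.3 TPM against 160 and 187, changed by -0.88 ± 0.09 (limma adjusted p = 1.02e-05), and remained above the unstimulated 38.2 and 41.4. Srxn1 was at 37.2 and 34.3 TPM against 57.2 and 70.5 (-0.81 ± 0.09), and Osgin1 at 8.29 and 7.77 against 14.8 and 15.1 (-0.82 ± 0.09). No ACBI1 library overlapped a control library for these 4 genes, nor for any other of the 10, called or not. The share of all genes without overlap was not counted, so the lack of overlap alone does not set these genes apart. Gclm was at 4.81 and 4.92 TPM against 8.58 and 10.4, and Gsr at 12.6 and 10.8 against 20.4 and 21.1, changes of -0.84 ± 0.10 and -0.78 ± 0.08. Gclc, at 3.54 and 2.78 TPM against 6.41 and 6.21, changed by -0.82 ± 0.21 (limma adjusted p = 0.00782) and was not called without the second ACBI1 or the first control library. Nqo1, at 0.284 and 0.281 TPM against 1.03 and 0.715, changed by -0.54 ± 0.14 (limma adjusted p = 0.00717), a call that was lost without the first control library. It rests on 16 reads in the ACBI1 libraries against 47 in the controls. Nqo1 did not pass in the authors' deposited table (-1.47, adjusted p = 0.12). The changes that were not called were those of Prdx1, at 392 and 410 TPM against 415 and 416, and of Nfe2l2, at 301 and 278 against 352 and 355 (-0.29 on TPM, -0.10 after scaling). Granulocyte markers summed to 269 to 284 TPM in the ACBI1 libraries at 60 min and to 422 to 440 in the controls, and macrophage markers to 26864 to 27285 against 32609 to 33224. Stromal or endothelial markers summed to 9.68 to 9.84 TPM against 2.58 to 3.67. Fewer cells of a type and less RNA per cell cannot be told apart in such bulk samples. The part of these in the lower levels was not tested.

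BRM014 raised 4 of 10 genes at 60 min and lowered 3, against 16.8% and 13.4% of all tested genes. Hmox1 reached 1857 and 2151 TPM, the highest values in the 45 libraries, against 386 and 431 in the controls. This was a 4.91-fold difference and a log2 change of 2.29 ± 0.09 (limma adjusted p = 3.1e-10). Osgin1 rose to 29.6 and 35.4 TPM from 14.8 and 15.1 (1.06 ± 0.09, limma adjusted p = 8.21e-07), and Srxn1 to 104 and 122 from 57.2 and 70.5 (0.82 ± 0.09). Gclc rose to 12.2 and 22.2 TPM from 6.41 and 6.21 (1.26 ± 0.21, limma adjusted p = 0.000502), with its replicates far apart. Nfe2l2 fell, to 150 and 132 TPM from 352 and 355, a log2 change of -1.32 ± 0.07 (limma adjusted p = 5.71e-09). The BRM014 libraries were thus below the unstimulated 183 and 169 TPM for the gene that encodes NRF2 while Hmox1 was at its peak. Txnrd1 and Gsr were also called lower, by -0.35 ± 0.09 and -0.28 ± 0.08 (limma adjusted p = 0.0115 and 0.0138). The Txnrd1 call was lost without the first BRM014 library (-0.21) or the second control library (-0.23), and the Gsr call without the second control library. In the authors' deposited table neither passed, with adjusted p of 0.291 and 0.444.

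BRDK98 raised 6 of 10 genes at 60 min and lowered 0, against 6.05% and 5.53% of all tested genes. Srxn1 was at 389 and 400 TPM against 57.2 and 70.5, a 6.18-fold difference (log2 change 2.62 ± 0.09, limma adjusted p = 2.32e-10). Osgin1, which BRDK98 had lowered at 20 min, was at 49.0 and 50.0 TPM against 14.8 and 15.1 (1.66 ± 0.09, limma adjusted p = 1.33e-08), above all other libraries of the study. Hmox1 was at 699 and 676 TPM against 386 and 431 (0.75 ± 0.09, limma adjusted p = 2.48e-05). The other calls were Gclc (10.9 and 14.6 TPM against 6.41 and 6.21, 0.90 ± 0.21), Txnrd1 (232 and 238 against 160 and 187, 0.44 ± 0.09) and Gsr (26.6 and 29.9 against 20.4 and 21.1, 0.42 ± 0.08). These last 3 were not called without the first control library, which left 3 of 10, against 3.67% of all genes in that fit. Gclc and Gsr were also lost without the second control or the second BRDK98 library. Nfe2l2 was at 327 and 321 TPM against 352 and 355, which was not called.

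**Figure D3:**
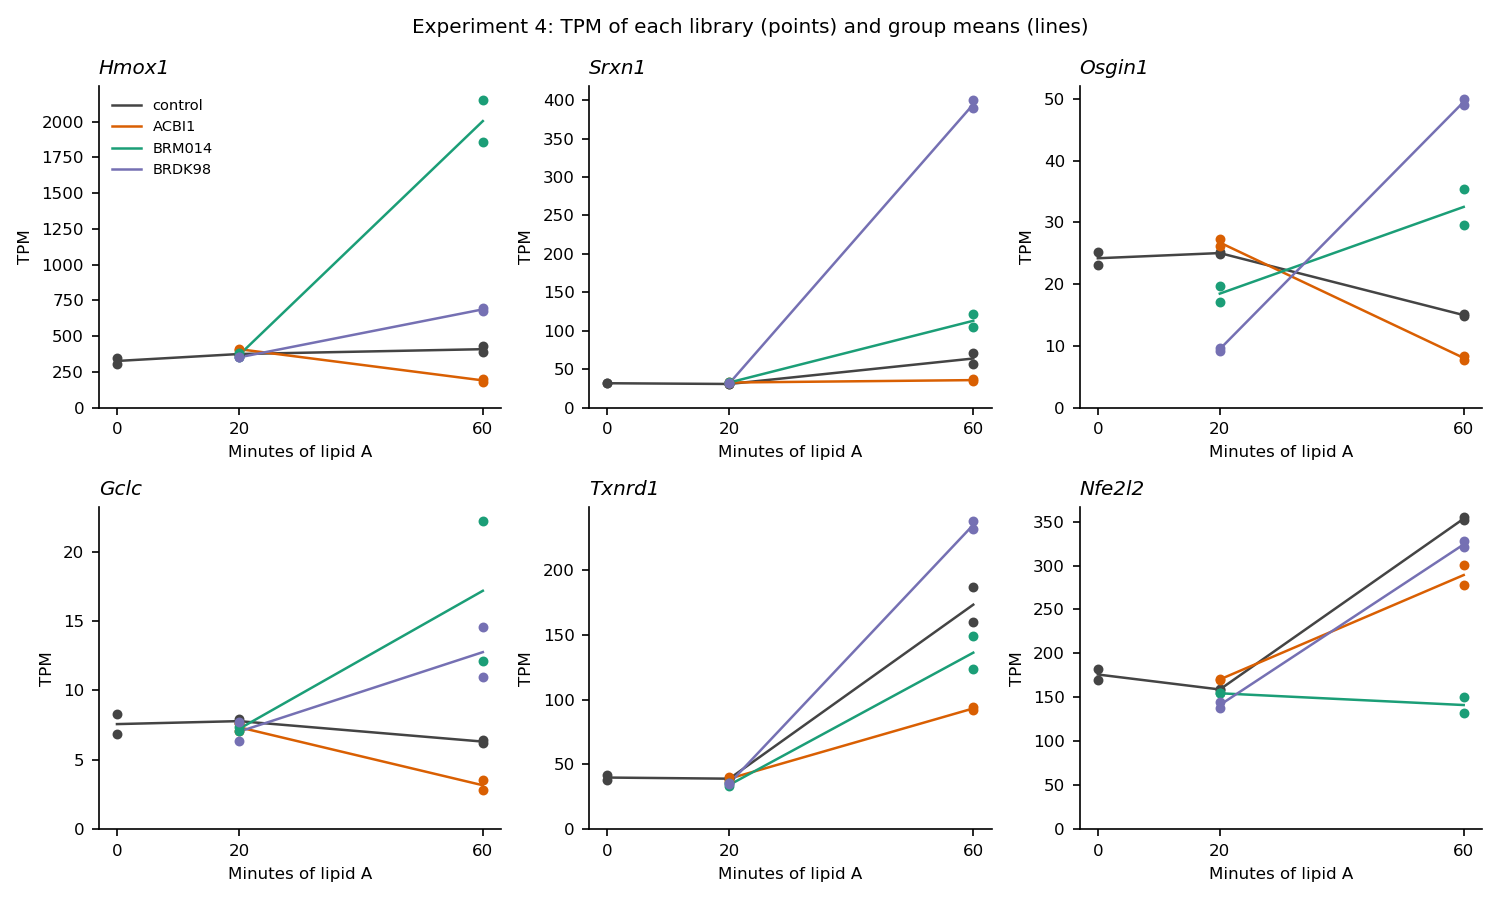
Level in TPM (linear axis from 0) of Hmox1, Srxn1, Osgin1, Gclc, Txnrd1 and Nfe2l2 against minutes of lipid A (0, 20 and 60) in experiment 4, with points for libraries and lines joining group means, coloured by compound. At 60 min the Hmox1 libraries with BRM014 stand at 1857 and 2151 TPM and those with ACBI1 at 199 and 182 TPM, on either side of the controls at 386 and 431 TPM.

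The 3 compounds were compared with each other in 6 pairs, 3 at 60 min and 3 at 4 hr. At 60 min BRM014 was above ACBI1 for 7 of 10 genes and below it for 1, against 28.2% and 19.6% of all tested genes. The largest difference was that of Hmox1, 3.39 ± 0.09 on the log2 scale (limma adjusted p = 5.68e-12), and the 1 lower gene was Nfe2l2 (-1.03 ± 0.07, limma adjusted p = 4.06e-08). BRDK98 was above ACBI1 for 7 genes and below it for 0, against 20.7% and 14.3%. BRDK98 was above BRM014 for 5 genes and below it for 1, against 14.4% and 12.3%. Srxn1 and Hmox1 went opposite ways in that pair. Srxn1 was higher with BRDK98 by 1.80 ± 0.09 (limma adjusted p = 6.17e-09) and Hmox1 lower, by a log2 change of -1.54 ± 0.09 (limma adjusted p = 1.42e-08), with no overlap between libraries. Nfe2l2 was higher with BRDK98 by 1.2 ± 0.07 (limma adjusted p = 1.81e-08). Between BRDK98 and BRM014 the interval of the log2 difference was -0.81 to 0.10 for Gclc, -0.11 to 0.33 for Gclm, -0.29 to 0.14 for Prdx1 and -0.22 to 0.38 for Nqo1, and none of these 4 was called.

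At 4 hr of lipid A, when the control library had low Hmox1, Srxn1 and Osgin1, ACBI1 and BRM014 were associated with higher levels of most of the 10 genes. ACBI1 raised 8 of 10 genes and lowered 0, against 20% and 13.5% of all tested genes, with a median log2 change of 1.45 for the 10 genes and 0.25 for all genes. BRM014 raised 7 and lowered 1, against 26.4% and 16.4%, with medians of 1.80 and 0.43. BRDK98 raised 1 and lowered 3, against 22% and 12.4%, with medians of 0.13 and 0.46. On median-scaled TPM alone, and on recovered reads, BRDK98 lowered 5 genes, Hmox1 and Gclm being the others, where scaled TPM gave 29.9% of all tested genes lower. Lower in the authors' deposited table were 6 genes, Prdx1 being the further gene (-0.21, adjusted p = 0.00212). BRM014 lowered 2 genes on scaled TPM and on recovered reads, Nfe2l2 being added, against 30.3% of all tested genes on scaled TPM.

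Srxn1 was at 189 and 158 TPM with ACBI1, at 413 and 437 with BRM014 and at 14.9 and 18.5 with BRDK98, against 9.58 in the control library. The BRM014 libraries are the highest for this gene in the study. BRM014 exceeded ACBI1 by 1.29 ± 0.12 (limma adjusted p = 1.65e-05), and BRDK98 lay below ACBI1, by a log2 change of -3.31 ± 0.12 (limma adjusted p = 1.53e-08). Against control the BRDK98 change was 0.73 on TPM and 0.13 after scaling, and was not called. Hmox1 was at 1179 and 1091 TPM with ACBI1, at 730 and 707 with BRM014 and at 90.2 and 94.7 with BRDK98, against 107. Here ACBI1 was the highest: BRM014 differed from it by -0.66 ± 0.08 (limma adjusted p = 8.77e-05) and BRDK98 by -3.60 ± 0.08 (limma adjusted p = 1.03e-09). The BRDK98 change of Hmox1 against control was -0.21 on TPM, not called, and -0.86 after scaling (limma adjusted p = 4.57e-05 on scaled TPM). Osgin1 was at 11.7 and 12.6 TPM with ACBI1, 3.20 and 2.63 with BRM014, and 0.12 and 0.316 with BRDK98. Against the 1 read of the control library, the ratios were 133 (counting interval 23.7 to 5254), 31.4 (5.47 to 1258) and 2.35 (0.302 to 106). Between compounds, BRM014 was below ACBI1 by a log2 change of -1.75 ± 0.21 (limma adjusted p = 9.64e-05).

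Both subunits of the glutathione-synthesising ligase rose with ACBI1 and with BRM014. Gclc was at 16.2 and 12.7 TPM with ACBI1 and at 27.8 and 29.3 with BRM014, against 3.63 in the control library, changes of 1.73 ± 0.19 and 2.67 ± 0.19 (limma adjusted p = 7.24e-05 and 1.8e-06). It was the 1 gene that BRDK98 raised too, to 10.7 and 11.4 TPM (1.38 ± 0.19, limma adjusted p = 0.000153). The BRDK98 libraries lay below both ACBI1 libraries for Gclc. The log2 difference had an interval of -0.69 to -0.00 on TPM (limma adjusted p = 0.0853) and was -0.61 after scaling (limma adjusted p = 0.00501), so it was not called, whereas it was on recovered reads (-0.65) and without the second ACBI1 library (-0.51). Gclm was at 38.4 and 31.6 TPM with ACBI1, 46.8 and 48.7 with BRM014 and 20.5 and 18.6 with BRDK98, against 18.0. Its changes with ACBI1 and BRM014 were 0.92 ± 0.16 and 1.36 ± 0.16 (limma adjusted p = 0.00104 and 4.33e-05), the first not called without the first ACBI1 library. The difference between these compounds had an interval of 0.15 to 0.73 on TPM and was 0.23 after scaling, and was not called. Prdx1, a peroxide-reducing enzyme, was at 1495 and 1166 TPM with ACBI1 and 1397 and 1515 with BRM014, against 422, changes of 1.64 ± 0.15 and 1.78 ± 0.15. Between the 2 compounds its log2 difference had an interval of -0.13 to 0.41. With BRDK98 Prdx1 was at 525 and 571 TPM, which was not called.

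The reductases and Nfe2l2 separated the compounds. Txnrd1 was at 203 and 196 TPM with ACBI1, 327 and 308 with BRM014 and 56.0 and 58.1 with BRDK98, against 88.9. BRDK98 thus lowered a gene that ACBI1 and BRM014 raised (-0.63 ± 0.09, limma adjusted p = 0.000257, against 1.16 ± 0.09 and 1.82 ± 0.09). Gsr was at 113 and 118 TPM with ACBI1, 74.3 and 71.5 with BRM014 and 14.3 and 13.9 with BRDK98, against 98.2. The BRDK98 libraries were below the unstimulated 24.9 and 22.8 TPM, with a log2 change of -2.72 ± 0.10 against the 4 hr control (limma adjusted p = 4.3e-08). BRM014 lowered Gsr by less (-0.42 ± 0.10, limma adjusted p = 0.00332), and with ACBI1 it was not called (0.23, and -0.13 after scaling). Nfe2l2 was at 429 TPM in both ACBI1 libraries, 179 and 189 with BRM014 and 26.5 and 25.3 with BRDK98, against 179. ACBI1 raised it by 1.26 ± 0.10 (limma adjusted p = 1.33e-05). BRDK98 lowered it by a log2 change of -2.74 ± 0.10 (limma adjusted p = 5.2e-08), 6.9-fold, to the lowest level in the study. With BRM014 its change was 0.04 on TPM and -0.54 after scaling (limma adjusted p = 0.000738 on scaled TPM), and it was not called. Nqo1 was at 0.581 to 1.76 TPM in all 4 hr libraries of experiment 1 and was not called with any compound.

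Over the 10 genes at 4 hr, BRM014 was above ACBI1 for 3 and below it for 4, against 16.2% and 14.1% of all tested genes. BRDK98 was above ACBI1 for 0 and below it for 8, against 21.2% and 15.4%, or for 9 on median-scaled TPM alone, against 24.2%. BRDK98 was above BRM014 for 0 and below it for 9, against 23.2% and 22.1%. The summed granulocyte markers at 4 hr were 21.4 TPM in the control library, 23.9 to 30.8 with ACBI1, 42.6 to 52.4 with BRM014 and 6.47 to 6.48 with BRDK98, and the macrophage markers summed to 18745, 23806 to 24923, 26318 to 27675 and 18709 to 18907. In the same order, dendritic cell markers summed to 2.30, 2.93 to 3.99, 9.51 to 9.68 and 1.56 to 1.57 TPM, and stromal or endothelial markers to 14.5, 3.90 to 4.59, 0.842 to 1.41 and 8.39 to 9.74 TPM. Their part in the differences was not tested.

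**Figure D4:**
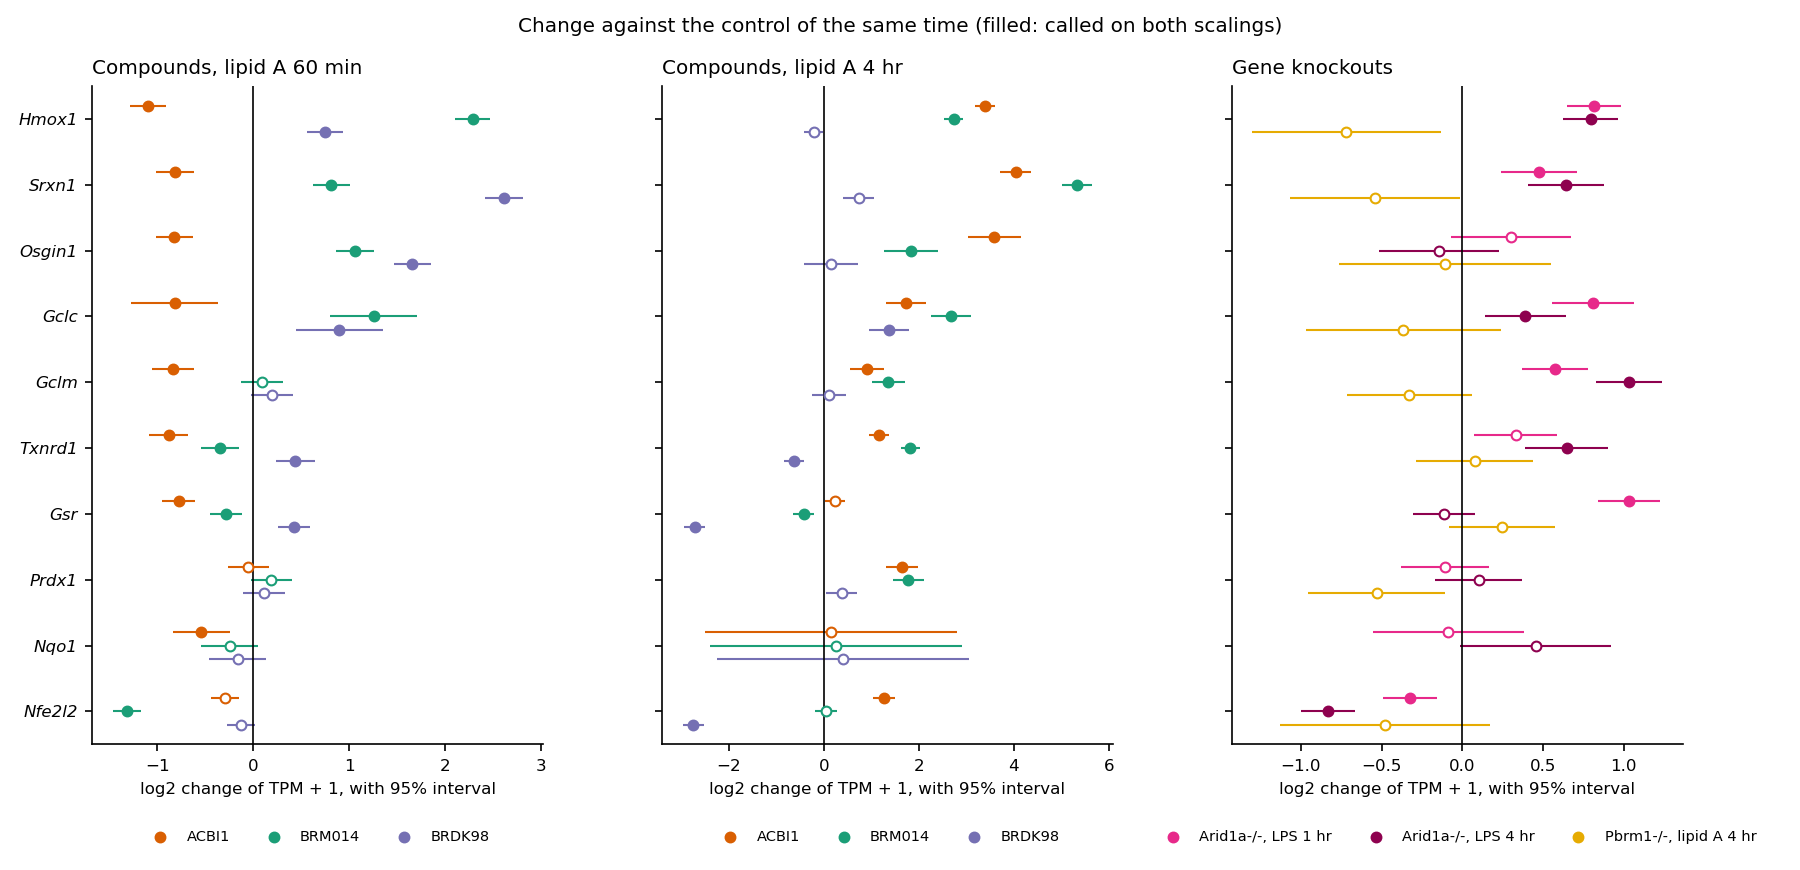
Log2 change of TPM + 1 against the control of the same time, with 95% intervals, for the compounds at 60 min (left) and 4 hr (middle) and for the knockouts (right), filled where called on both scalings. ACBI1 points lie left of 0 at 60 min and right of 0 at 4 hr for Hmox1, Srxn1, Osgin1, Gclc, Gclm and Txnrd1. The 4 hr compound intervals rest on 1 control library, and the scales of the 3 panels differ.

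Set side by side, 60 min and 4 hr gave opposite directions for ACBI1. Hmox1 changed by -1.10 at 60 min and 3.39 at 4 hr, Srxn1 by -0.81 and 4.04, Osgin1 by -0.82 and 3.59, and Txnrd1 by -0.88 and 1.16. The times belong to separate experiments with their own controls, and the difference between them was not tested. Within experiment 4 the change of each compound's effect from 20 to 60 min was tested. It was called for 7 of 10 genes with ACBI1, 5 with BRM014 and 4 with BRDK98, against 18.5%, 13.3% and 6.66% of all tested genes.

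By the call used, Arid1a-/- cells had higher Hmox1, Srxn1, Gclc and Gclm and lower Nfe2l2 than Arid1af/f cells at both times. In Arid1a-/- cells at 1 hr of LPS, 5 of 10 genes were called higher and 1 lower than in Arid1af/f cells, against 18.7% and 16.8% of all tested genes. At 4 hr 5 were called higher and 1 lower, against 13.9% and 10.8%. The median log2 change of the 10 genes was 0.40 at 1 hr and 0.42 at 4 hr, and that of all genes 0.03 and 0.05.

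Hmox1 was at 688 and 658 TPM in the knockout at 1 hr against 398 and 366 in control, and at 228 and 240 against 137 and 131 at 4 hr. The knockout libraries were above the controls at both times, by 0.82 ± 0.08 and 0.79 ± 0.08 (limma adjusted p = 3.08e-05 and 5.52e-05), while both genotypes had less Hmox1 at 4 hr than at 1 hr. Srxn1 was at 97.0 and 93.2 TPM against 69.0 and 67.4 at 1 hr and at 30.1 and 29.5 against 18.3 and 19.2 at 4 hr, by 0.47 ± 0.11 and 0.64 ± 0.11 (limma adjusted p = 0.00542 and 0.00144). The 1 hr call was lost without either 1 hr control library. Gclm was at 40.4 and 41.9 TPM against 27.6 and 27.0 at 1 hr and at 23.5 and 23.9 against 12 and 10.3 at 4 hr, by 0.57 ± 0.09 and 1.03 ± 0.09 (limma adjusted p = 0.000861 and 4.03e-05). Gclc was at 17.9 and 21.1 TPM against 11.2 and 10.2 at 1 hr (0.81 ± 0.11, limma adjusted p = 0.000361). At 4 hr it was at 4.49 and 4.79 TPM against 3.37 and 3.23 (0.39 ± 0.11, limma adjusted p = 0.0265), and this call was lost on recovered reads and without any 1 of the control or 4 hr knockout libraries. Gclc did not pass at 4 hr in the authors' deposited table (0.41, adjusted p = 0.289). Txnrd1, at 148 and 135 TPM against 87.0 and 93.0, was called higher at 4 hr only (0.65 ± 0.12, limma adjusted p = 0.00231). At 1 hr its change was 0.33 on TPM and 0.27 after scaling, and the difference between the times was not called (0.32 ± 0.16, limma adjusted p = 0.223).

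Gsr and Nfe2l2 behaved apart from these. Gsr was at 41.8 and 43.3 TPM in the knockout at 1 hr against 19.7 and 20.9, a log2 change of 1.03 ± 0.09 (limma adjusted p = 1.68e-05), and at 32.7 and 34.8 against 37.3 and 35.8 at 4 hr, which was not called. The difference between the times was -1.14 ± 0.12 (limma adjusted p = 0.000369). Nfe2l2 was lower in the knockout, at 236 and 227 TPM against 295 and 285 at 1 hr and at 114 and 107 against 205 and 191 at 4 hr. The changes were -0.32 ± 0.08 and -0.83 ± 0.08 (limma adjusted p = 0.00689 and 4.22e-05), the first not called without the first 1 hr control library, and their difference was -0.51 ± 0.11 (limma adjusted p = 0.0105), not called without the second 1 hr control library. In the authors' deposited table Nfe2l2 did not pass at 1 hr (-0.37, adjusted p = 0.0703). Of the effects at 4 hr against those at 1 hr, 3 of 10 were called, against 15.9% of all tested genes, and 1 without the second 1 hr control library, against 7.81% in that fit. Osgin1, Prdx1 and Nqo1 were not called at either time. Granulocyte markers summed to 33.6 to 39.8 TPM in the knockout and 23.6 to 24.4 in the control at 1 hr, and to 30.8 to 38.3 and 16.6 to 26.1 at 4 hr. Macrophage markers summed to 15141 to 15192 TPM against 19324 to 19481 at 1 hr and to 14464 to 15207 against 13348 to 13807 at 4 hr. Stromal or endothelial markers summed to 5.69 to 8.71 TPM against 2.32 to 2.70 at 1 hr and to 55.3 to 62.2 against 29.6 to 29.8 at 4 hr. The part of any of these in the differences was not tested.

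The Pbrm1 knockout gave no call. None of the 9 tested genes differed between Pbrm1-/- and Pbrm1f/f cells at 4 hr of lipid A in limma, against 0.00905% of all tested genes, with 1 of 9 at an unadjusted p below 0.05 and 0 called on recovered reads. Hmox1 was at 71.5 and 69.2 TPM in the knockout against 87.0 and 155 in the controls (log2 change -0.72, interval -1.30 to -0.13, limma adjusted p = 0.468). Nfe2l2 was at 101 and 98.5 TPM against 99.5 and 194. The control libraries differed from each other for both genes, and without the first of them 3 genes were called lower: Hmox1 (-1.13), Nfe2l2 (-0.95) and Gclc (-0.80), against 5.44% of all genes tested in that fit.

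Over the 12 comparisons of a compound or knockout with its control, the genes differed in how often they were called. Gclc was called higher in 7 and lower in 1, Hmox1 and Srxn1 each higher in 6 and lower in 1, and Osgin1 higher in 4 and lower in 2. Nfe2l2 was called lower in 4 and higher in 1, Gsr lower in 4 and higher in 2, and Prdx1 higher in 2. Txnrd1 was called higher in 4 and lower in 3, Gclm higher in 4 and lower in 1, and Nqo1 lower in 1 of the 11 in which it was tested. Comparisons within an experiment and time share their controls, so these counts are not independent. No single share of all genes stands beside them, since that share differed between comparisons. It was 0.00905% with loss of PBRM1, and 26.4% higher and 16.4% lower with BRM014 at 4 hr.

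Beyond the 10 genes, 77 further genes of the pathway in 7 lists were read the same way. With ACBI1 at 4 hr 17 of the 73 tested were called higher and 14 lower, against 20% and 13.5% of all tested genes. BRM014 gave 17 and 14, against 26.4% and 16.4%, and BRDK98 15 and 14, against 22% and 12.4%. Their median log2 changes of 0.14, 0.41 and 0.19 stood beside all-gene medians of 0.25, 0.43 and 0.46. With ACBI1 at 60 min 10 of 72 were called higher and 25 lower, against 11.6% and 13.7%, with a median of -0.31 against -0.14 for all genes. Of the 17 tested genes of glutathione synthesis and use, ACBI1 lowered 8 and raised 2 at 60 min, and of 9 genes of heme and iron handling it lowered 5 and raised 1. In Arid1a-/- cells 13 of 74 were called higher and 21 lower at 1 hr, against 18.7% and 16.8%. At 4 hr 13 were called higher and 14 lower, against 13.9% and 10.8%. In Pbrm1-/- cells 0 of 72 were called, against 0.00905%.

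Among the regulators of NRF2, Sqstm1, which encodes the autophagy receptor p62 that binds KEAP1, was raised by ACBI1 and BRM014 at 4 hr (2246 ± 18.5 and 3420 ± 140 TPM, SD, n = 2, against 242 in the control library), with log2 changes of 3.21 ± 0.09 and 3.81 ± 0.09. At 60 min it was at 1437 ± 99.9 TPM in controls, 744 ± 14 with ACBI1 and 3110 ± 133 with BRDK98 (limma adjusted p = 9.93e-07 and 8.91e-08). Maff, a small MAF partner, rose from 1.93 to 203 TPM by 60 min of lipid A (log2 change 6.12 ± 0.10, limma adjusted p = 1.43e-14), and Keap1 fell from 40.5 to 16.5 TPM (-1.25 ± 0.08, limma adjusted p = 2.05e-08). Keap1 was higher with ACBI1 at 60 min, at 34.7 ± 1.96 TPM (1.03 ± 0.08, limma adjusted p = 7.83e-07). Bach1, the competing repressor, was lower with BRM014 and BRDK98 at 60 min, at 20.0 ± 10.7 and 32.0 ± 1.27 TPM against 57.9 ± 1.60 (limma adjusted p = 0.000321 and 0.0378).

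Of the enzymes and transporters, Slc7a11, the cystine importer that feeds glutathione synthesis, rose from 0.512 to 23.0 TPM at 1 hr of lipid A in experiment 1 (log2 change 3.98 ± 0.12). That 1 hr mean includes the library with collagen transcripts, whose part in the rise was not tested. Slc7a11 was also raised by ACBI1, BRM014 and loss of ARID1A at 4 hr (1.73 ± 0.15, 2.55 ± 0.15 and 1.24 ± 0.17). Prdx6, another peroxiredoxin, was raised by BRDK98 at 60 min from 27.3 ± 0.540 to 183 ± 1.16 TPM (2.70 ± 0.10, limma adjusted p = 5.06e-10). Other genes on the lists took other directions. Sod2, the mitochondrial superoxide dismutase and a classical NF-kB target, rose with lipid A at 4 hr by 4.13 ± 0.09 in experiment 1 and was lowered by ACBI1, BRM014 and BRDK98 at that time (log2 changes of -0.91, -2.01 and -3.03). Ephx1, an epoxide hydrolase, and Mgst1, a microsomal glutathione transferase, were lowered by ACBI1 at 60 min (-2.0 ± 0.08 and -1.37 ± 0.07) and by loss of ARID1A at both times (-1.54 and -1.79 for Ephx1, -1.49 and -1.17 for Mgst1), where Hmox1 and Gclm were higher.

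The 10 genes did not form 1 block across the 45 libraries. After centring on each experiment's mean, the 45 pairs of genes had a median Pearson correlation of 0.28, from -0.33 (Nqo1 with Gsr) to 0.81 (Hmox1 with Srxn1), a description over libraries that share groups and experiments. Of 6827 genes of sufficient abundance, those most like Hmox1 were Srxn1 (0.81), Gclc (0.80) and Rnf185 (0.77). For Srxn1 and for Txnrd1 it was Sqstm1 (0.88 and 0.90), for Osgin1 Lhfpl2 (0.89), for Gclc Ppp2r5d (0.91), for Gclm Inpp5e (0.89) and for Gsr Ggta1 (0.89). For Nfe2l2 it was Arhgap22 (0.85), which is not one of the pathway genes, and for Nqo1 S100a6 (0.80), the gene that was high in the 1 library with collagen transcripts.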

How the data were processed

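Polyadenylated RNA was sequenced with a strand-specific kit, per the labels' protocols. The authors deposited TPM values per gene, made with HOMER over exons with reads of both strands counted, per the file headers. The submitters' processing notes name STAR 2.5.3a, HOMER, DESeq2 and the builds GRCm38 and mm10 for the steps of the authors. The authors also deposited log2 fold changes and adjusted p-values from their own comparisons, and values copied from them are called the authors' deposited table.

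Each experiment was fitted separately with limma 3.58.1 (R 4.3.3, trend and robust moderation) on log2(TPM + 1), all groups together, over genes with at least 1 TPM in at least 2 libraries (11531, 11798, 11044 and 11549 genes in experiments 1 to 4). Adding 1 TPM understates changes of genes with low levels. The fit was repeated on TPM scaled by median-ratio factors, and a gene was called where both fits gave an adjusted p (Benjamini-Hochberg within each of 29 comparisons) below 0.05 with the same sign. Residual degrees of freedom were 5, 5, 3 and 9. TPM multiplied by transcript length gave whole reads, within 0.1 read, for 100% of values of up to 20 reads, and limma's voom on those reads was an alternative. Intervals are 95%. With 3 reads on a transcript of 2 kb as the floor, the lowest level that can be told from 0 was 0.0654 to 0.298 TPM. Counting intervals cover counting error only, since no molecular identifiers are stated in the sources used here. Scripts were tested on simulated data.

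The 10 genes were named in every comparison. From the wider lists, at most 3 called genes per list and comparison with a mean of at least 5 TPM in either group could be named, by size of change. The 3 most similar genes were taken by Pearson correlation among genes with a mean of at least 5 TPM in every experiment. The members and lists were chosen with earlier results of these data known. The second 4 hr control library of experiment 1 was not analysed here, because its column repeated the first, and 1 column was left without a sample.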

Additional observations from a re-analysis of the deposited data

Results flagged for a closer look

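Of 40 tests of whether an effect differed between times in the same experiment, 19 passed in limma on both scalings, and each is given as the difference of the log2 changes. Over all tested genes the shares that passed were 15.9% for loss of ARID1A and 18.5%, 13.3% and 6.66% for ACBI1, BRM014 and BRDK98. From 1 to 4 hr of LPS, the effect of losing ARID1A grew for Gclm by 0.46, and it moved by -1.14 for Gsr and -0.51 for Nfe2l2. The Gsr effect went from higher in the knockout to not called, and the Nfe2l2 effect became more negative. The Gclm difference was not called with no filter on low values, with no trend or robust moderation, with voom (0.46), or when any 1 of 7 libraries was left out, where it ranged from 0.36 to 0.47, and the Nfe2l2 difference was not called without the second 1 hr control library (-0.48).

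From 20 to 60 min of lipid A, the effect of ACBI1 moved down for 7 genes: Hmox1 by -1.22, Srxn1 by -0.90, Osgin1 by -0.91, Gclm by -0.83, Txnrd1 by -0.88, Gsr by -0.77 and Nqo1 by -0.63. The Nqo1 difference was not called without any 1 of 6 libraries, where it ranged from -0.64 to -0.51. The effect of BRM014 moved up for Hmox1 by 2.32, Srxn1 by 0.73, Osgin1 by 1.49 and Gclc by 1.35, and down for Nfe2l2, by -1.28. The effect of BRDK98 moved up for Hmox1 by 0.84, Srxn1 by 2.57, Osgin1 by 2.97 and Txnrd1 by 0.58. Osgin1 with BRDK98 is the 1 case among these where a gene was called lower at 20 min and higher at 60 min. The Txnrd1 difference with BRDK98 was not called without any 1 of 4 libraries, where it ranged from 0.47 to 0.56.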

How the results depend on the processing

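Of 288 gene values, 152 were called, and the alternatives (pseudocount 0.1, no filter on low values, either scaling alone, no trend or robust moderation, a replicate block, voom on recovered reads and leaving out 1 library) left most on the same side of the threshold. Shares of all genes called differed between comparisons and are given with each above, so the 152 alone does not show an excess. Over all libraries left out in turn, 3873 gene values stayed on their side, 62 lost a call and 33 gained one. Each library was left out for every comparison of its experiment. Many of these fits therefore kept all libraries of the groups compared, so the 3873 overstates how far the calls were tried. On TPM as deposited alone, lipid A at 1 hr in experiment 1 called 8 genes instead of 4, and voom called 1 gene instead of 0 with BRM014 at 20 min. Signs reversed with median scaling and with voom, in that order, for Hmox1 after lipid A at 1 hr in experiment 1 (0.23 and 0.23), Nfe2l2 (0.26 and 0.27) and Prdx1 (0.40 and 0.40) at 4 hr in experiment 1, Prdx1 at 4 hr in experiment 3 (0.53 and 0.53) and at 60 min (0.33 and 0.33), Nfe2l2 with BRM014 at 4 hr (-0.54 and -0.54) and Gclm with BRDK98 at 4 hr (-0.51 and -0.53), and with voom alone for Gclc after lipid A at 1 hr in experiment 1 (0.45). Each of these passed the threshold in that fit, but not with the same sign on both scalings, so none was called. The cause was not tested.

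Leaving out 1 library at a time, the number of genes called ranged in experiment 1 from 3 to 5 for lipid A at 1 hr and 5 to 6 at 4 hr, 7 to 8 for ACBI1, 8 to 8 for BRM014 and 4 to 5 for BRDK98, and between compounds 7 to 7 for BRM014 and ACBI1, 8 to 9 for BRDK98 and ACBI1 and 9 to 9 for BRDK98 and BRM014. In experiment 2 it ranged from 4 to 6 for LPS at 1 hr, 7 to 7 at 4 hr, 4 to 7 and 5 to 6 for loss of ARID1A at 1 and 4 hr, and 1 to 4 for the difference between those. In experiment 3 it ranged from 5 to 7 for lipid A and 0 to 3 for loss of PBRM1. In experiment 4 it ranged from 0 to 0 for lipid A at 20 min and 4 to 6 at 60 min, 0 to 0, 0 to 1 and 1 to 1 for ACBI1, BRM014 and BRDK98 at 20 min, and 6 to 8, 5 to 8 and 3 to 6 at 60 min. Between compounds at 60 min it ranged from 7 to 8, 7 to 8 and 6 to 7, and for the differences between times from 6 to 9, 5 to 5 and 3 to 6. The 4 hr control of experiment 1 is 1 library and could not be left out of the comparisons against it.

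Libraries with the same replicate number were not paired by the data: correlations of their deviations ran from -0.239 to 0.236. With the replicate block, Gclc with loss of ARID1A at 4 hr (0.39) and the Gclm difference between times (0.46) were not called, Gclm after lipid A at 1 hr in experiment 1 was (-0.73), and no other call changed. Depth limits Osgin1 at 4 hr, where the control of experiment 1 holds 1 read, and Nqo1, below 1 TPM in 28 libraries.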
